A study of Camellia sinensis with 6 samples.

Results

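Growing plant cells are held by a wall of cellulose microfibrils, xyloglucan and pectin, and the proteins described here act on these polymers. They were found in the leaf transcriptome of tea (Camellia sinensis cv. ‘Huangjinya’) by the deposited annotation from the non-redundant protein database, which can hold several protein titles. A unigene was taken if any part of this text named an expansin, a xyloglucan endotransglucosylase or endotransglycosylase (XTH), or a pectinesterase or pectin methylesterase. A polygalacturonase, a pectate lyase, an endoglucanase or an extensin also counted. A unigene is a transcript sequence assembled from the reads without a genome. Of 127252 unigenes, 248 met this rule: 41 expansins, 33 XTHs, 12 endoglucanases, 46 pectinesterases, 21 pectate lyases, 46 polygalacturonases and 49 extensins. The rule reads annotations only and uses no measured level, although it was set with earlier results of these data known. The closest Swiss-Prot entry named the same enzyme for 233 of the members, and 151 carried a gene ontology term of the wall or the extracellular region. The best hits came from 38 plant species, with no species given for 11 members. Contigs of clusters with several members made up 85 of the 248, and 82 were shorter than 500 nt.

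The leaves came from 2-year-old plants in a field, from the third position below the shoot tip. The sunlight group (Y1, Y2 and Y3) grew without a net and had yellow leaves, and the shaded group (Y+S1, Y+S2 and Y+S3) stood for 10 days under a net that took away about 45% of the light and had green leaves. Each group holds 3 libraries from different plants. Cultivar, age, field and leaf position were shared by both groups. Each difference below is between plants under a net and plants without one, and the light itself cannot be told apart from other effects of the net. The 3 values of a group are listed in the order of the replicate numbers.

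The wall enzymes have separate roles. Expansins loosen the bonds between cellulose and xyloglucan without cutting a chain. XTHs cut xyloglucan and rejoin the cut end to another chain, and endoglucanases cut glucan chains. Pectinesterases remove methyl groups from homogalacturonan, the main pectin, which can then be bound by calcium or be cut by polygalacturonases (by hydrolysis) and pectate lyases (by elimination). Extensins are hydroxyproline-rich structural proteins that are cross-linked in the wall. In leaves these families are known for their part in cell expansion, and also in organ abscission and in the answer to pathogens.

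The libraries held 10022397 (Y3) to 18742989 (Y+S1) counted fragments, and a count of 0 allowed up to 0.160 to 0.299 CPM (counts relative to the library total), a limit that covers counting error only. Y1 and Y+S3 stood apart from the rest: the mean length of the unigene behind a count was 1341 and 1376 nt in them and 1508 to 1674 nt in the other 4. The study left out both libraries when it searched for differences, and the results are therefore given over 4 libraries (Y2 and Y3 against Y+S1 and Y+S2) and over all 6. Levels are the deposited FPKM (fragments relative to unigene length and to the counted fragments of the library), and fold changes are log2 values of shaded over sunlight, fitted to the counts with edgeR after TMM scaling. The TMM factor, which corrects for composition, was 0.761 in Y1 and 0.695 in Y+S3 and 1.08 to 1.29 in the other libraries, so that Y1 and Y+S3 stand higher on the TMM scale than on the FPKM scale. The tissue was checked with 46 unigenes of chlorophyll-binding proteins and the small subunit of Rubisco, which took 4.01% to 4.14% of the counts in sunlight and 5.19%, 2.81% and 2.80% in the shaded libraries. Unigenes with a best hit outside plants and green algae took 0.185% to 0.602% of the counts in 5 libraries and 2.56% in Y+S3, while the best hits of the 248 members were all plant proteins where a species was given. In RNA from whole leaves, a change in the number of cells of a type and a change in RNA per cell cannot be told apart.

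Together the members took a larger part of the leaf RNA in each shaded library than in any sunlight library. Their share of the counted fragments was 0.420%, 0.660% and 0.684% in sunlight and 1.12%, 0.904% and 0.831% in shade. Sunlight libraries averaged 0.588% ± 0.146 (SD, n = 3) and shaded libraries 0.952% ± 0.151 (SD, n = 3). A few abundant transcripts carried much of this difference. Without the pectinesterase Unigene45652 the shares still did not overlap (0.416% to 0.672% against 0.753% to 0.957%). Without the 5 members with the highest mean share of the counts they overlapped, since Y+S3 then stood at 0.377%, below Y2 at 0.388% and Y3 at 0.422%.

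**Figure D1:**
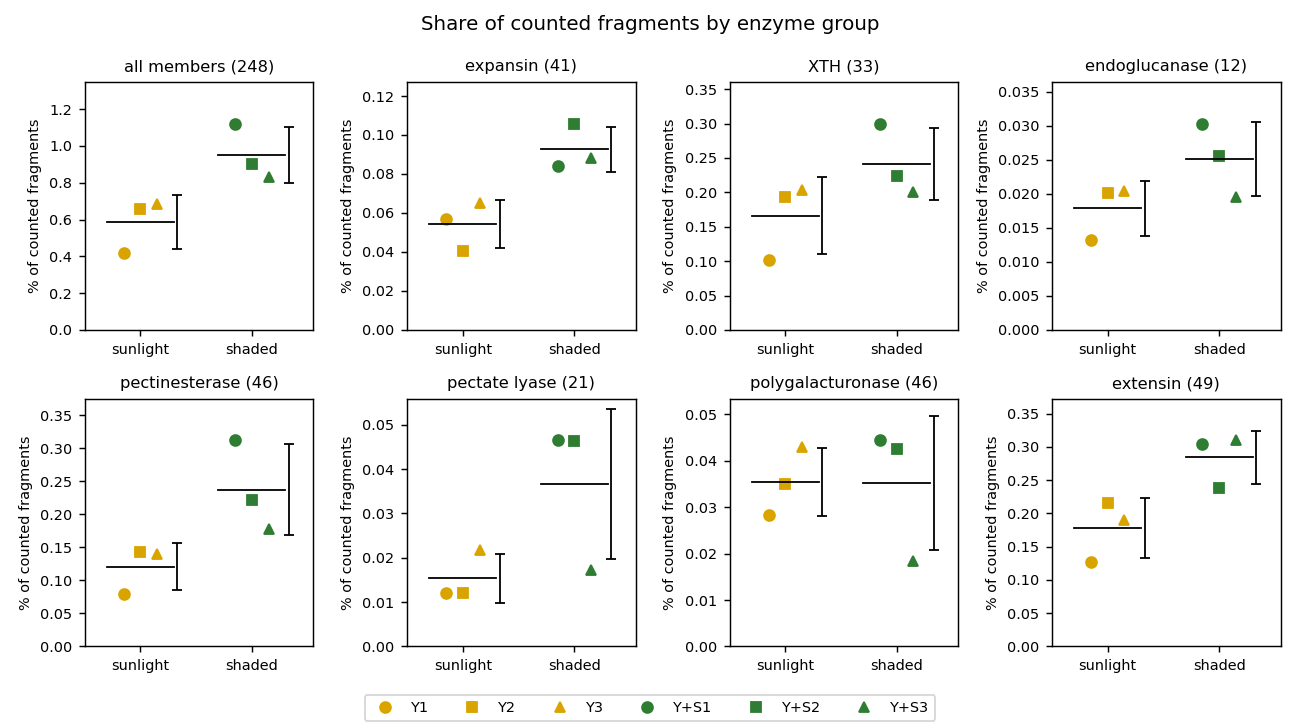
Share of the counted fragments (%, each panel from 0) taken by all members and by each enzyme group, with the number of unigenes in parentheses, in 3 sunlight (yellow) and 3 shaded (green) libraries; lines are means and bars are ± 1 SD. The shares do not overlap for all members (0.420% to 0.684% against 0.831% to 1.12%), while for polygalacturonases the means are 0.0355% and 0.0352%.

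No member passed the test. Of the 248 members, 246 had a count in some library, 192 had one in each of the 6, and 192 had a mean level of at least 1 FPKM. After the filter on low counts 175 were tested over 4 libraries and 168 over 6. In the quasi-likelihood test of edgeR, 0 of 175 members had an adjusted p of 0.05 or less over 4 libraries, where 0.0529% of all unigenes tested did, and 0 of 168 over 6 libraries, where 0.0% did. At an unadjusted p under 0.05 there were 49 members over 4 libraries, 32 higher and 17 lower in shade. This was 28.0% of the members tested, beside 14.9% of all unigenes tested, of which 7.23% were higher and 7.69% lower. Over 6 libraries there were 36 such members (27 higher and 9 lower), which was 21.4%, beside 8.06% of all unigenes (4.39% higher and 3.67% lower). DESeq2 called 10 members over 4 libraries (8 higher, 2 lower), with a background of 2.9% of the unigenes to which it gave an adjusted p, and 4 over 6 libraries, all higher, with a background of 0.857%. Under the study's rule of an adjusted p of 0.001 and a log2 change of 1, DESeq2 called 3 members over 4 libraries (background 0.699%) and 1 over 6 (0.155%). limma on log2(FPKM + 0.5) called 1 member in either set, Unigene45652 (background 0.0756% over 4 libraries and 0.0255% over 6), and edgeR without the filter on low counts called 9 over 4 libraries (0.757%). Leaving out Y+S1 or Y+S2 from the 4-library fit gave 31 and 33 edgeR calls among the members (background 5.03% and 9.55%), and leaving out Y2 or Y3 gave 0. Such a fit rests on a single library in one group, which is assumed to vary like the other group.

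Most members nevertheless lay on the shaded side. Of the members tested over 4 libraries 112 had a positive and 63 a negative fold change, with a median of 0.25 beside 0.03 for all unigenes tested, of which 51.9% were positive. Over 6 libraries 109 were positive and 59 negative (52.6% of all unigenes were positive), and the median was 0.33 beside 0.04. The median over 4 libraries was 0.12 without Y3 and 0.09 without Y+S1, and that over 6 was 0.20 without Y+S3. As a description of the replicates, members were counted whose 3 shaded libraries all lay above, or all below, the 3 sunlight libraries in TMM-scaled CPM. There were 28 members above, or 16.7% of the 168 tested, beside 6.67% of all unigenes tested, and 13 below, or 7.74%, beside 7.28%. The 28 came from 24 assembly clusters, groups of contigs that the assembler joined by similarity. The share below was thus near the background and the share above was not. On the deposited FPKM scale 25 lay above (14.9%, background 4.07%) and 10 below (5.95%, background 7.83%). Those without overlap on both scales were 16 above and 8 below, beside 1882 and 2375 of the 59300 unigenes tested. Without Y+S3 there were 51 members above in TMM-scaled CPM (30.4%, background 19.2%) and 26 below (15.5%, background 20.1%).

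**Figure D2:**
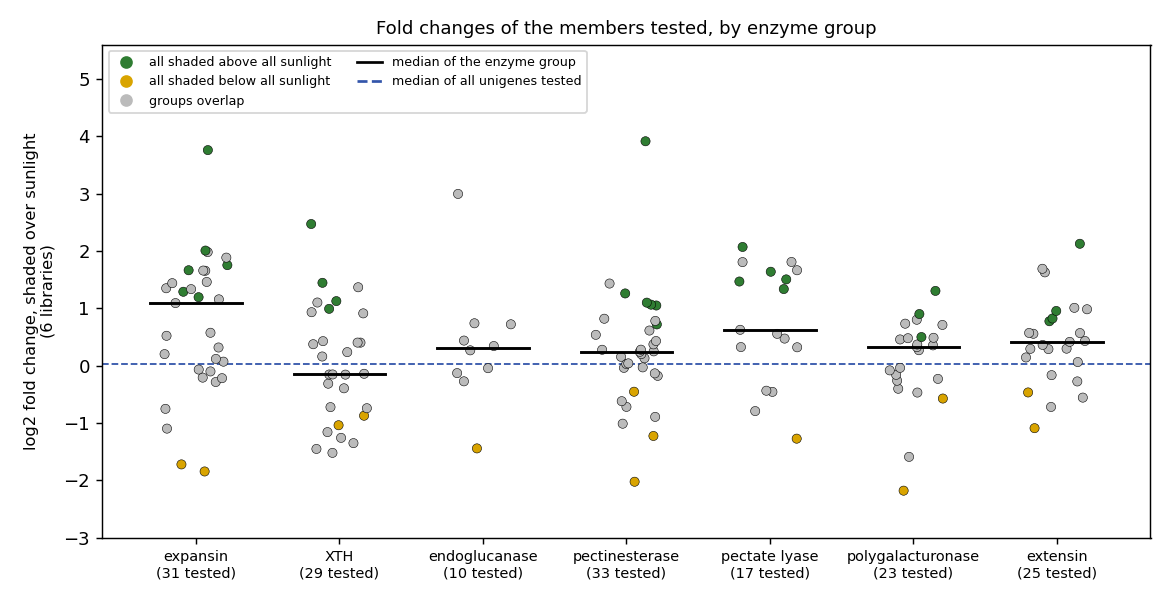
Log2 fold change (shaded over sunlight, edgeR fit over 6 libraries) of each member tested, by enzyme group; green and yellow points have groups that do not overlap in TMM-scaled CPM, black lines are group medians and the dashed line is the median of all unigenes tested (0.04). Medians run from -0.14 for XTH to 1.09 for expansins, and the topmost points are the pectinesterase Unigene45652 at 3.92 and the expansin-like Unigene35357 at 3.76. Unigene35357 was near the detection limit in sunlight.

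Expansins were the group with the highest median over 6 libraries in the main edgeR fit, a rank that some of the other settings did not keep. Their summed level was 733, 459 and 790 FPKM in sunlight and 958, 1268 and 1156 FPKM in shade, with no overlap. The means were 661 ± 177 and 1127 ± 157 FPKM (SD, n = 3 each). Over 4 libraries 24 of 32 tested expansins had a positive fold change, with a median of 0.49, and over 6 libraries 22 of 31, with a median of 1.09. The second median was 0.26 without Y+S3, and the first was 0.85 without Y3 and 0.25 without Y+S2. With each cluster once, the 6-library medians were 0.52 for expansins and 0.56 for pectate lyases. They were 0.50 and 0.55 without the filter, 0.52 and 0.60 with limma, and 0.56 and 0.55 with DESeq2. With RLE factors they were 1.11 and 0.62. The groups did not overlap for 6 expansins above (19.4% of 31, beside 6.67% of all unigenes) and 2 below (6.45%, beside 7.28%). Of the 6 above, 3 are contigs of the cluster CL894 described below.

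The expansin with the highest mean level was Unigene46484, a fragment of 203 nt whose best hit is alpha-expansin 6. It stood at 249, 98.2 and 227 FPKM in sunlight and at 208, 315 and 327 FPKM in shade. The groups overlapped, as Y+S1 lay below Y1 and Y3, and the log2 fold change was 0.65 (SE 0.36, edgeR adjusted p = 0.447) over 4 libraries.

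CL894.Contig2, whose closest Swiss-Prot entry is expansin-A8, was the leading alpha-expansin by fold change under the rule for named unigenes. Its levels were 5.37, 2.18 and 18.8 FPKM in sunlight and 39.8, 59.7 and 11.9 FPKM in shade. Y+S3 lay below Y3 on this scale, and the groups separated only on the TMM scale. The fit gave a log2 fold change of 2.24 (SE 0.73, edgeR adjusted p = 0.237) over 4 libraries and 2.01 (SE 0.72, adjusted p = 0.577) over 6. Over 4 libraries it was 1.41 without Y2, 4.32 without Y3, 2.41 without Y+S1 and 2.04 without Y+S2, each from a fit with 1 library alone in a group.

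Contig2 belongs to a cluster of 11 expansin contigs, CL894, most of them closest to expansin-A8, which was examined after its values had been seen. All 10 contigs that were tested over 6 libraries had positive fold changes, from 0.07 to 2.01, and 3 had groups that did not overlap. The summed level of the cluster was 69.4, 41.5 and 151 FPKM in sunlight and 254, 391 and 145 FPKM in shade. The spread within each group was wide. Y3 was the highest sunlight library for 10 of 10 contigs and Y+S3 the lowest shaded library for 9 of 10. Fragments that match several contigs are not among the unique fragments, so the split of reads between contigs of a cluster is uncertain and the contigs do not count as separate genes.

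Unigene26302, an alpha-expansin 1 named here after its values had been seen, had a narrower spread. Its levels were 57.1, 65.2 and 77.3 FPKM in sunlight and 199, 156 and 109 FPKM in shade, without overlap on either scale. Over 4 libraries the log2 fold change was 1.28 (SE 0.28), where the adjusted p was 0.157 with edgeR and 0.00782 with DESeq2.

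Unigene35357 encodes an expansin-like B1 protein, a member of a branch of the expansin superfamily without a settled wall activity. It was near the detection limit in sunlight, at 0.264, 0.204 and 0.329 FPKM from 3, 2 and 3 counts, and at 1.11, 1.85 and 6.37 FPKM in shade. All shaded libraries lay above all sunlight libraries, with Y+S3 the highest. The log2 fold change over 6 libraries was 3.76 (SE 1.01), with an adjusted p of 0.512 with edgeR and 0.0326 with DESeq2. It was 2.17 without Y+S3 and 1.96 with limma on log2(FPKM + 0.5). With so few counts in sunlight, the unigene passed the filter on low counts only through the shaded libraries. The same holds for its mean of at least 1 FPKM, so the p values are no support for a difference. The other expansin-like B1 unigene, Unigene15914, was at 3.31 to 6.07 FPKM in sunlight and at 2.97, 7.29 and 31.2 FPKM in shade, and it too was highest in Y+S3.

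A few expansins lay lower in shade. CL12475.Contig1, closest to expansin-A1, was at 17.9, 13.2 and 10.3 FPKM in sunlight and at 3.05, 5.97 and 4.23 FPKM in shade, with a log2 fold change of -1.47 (SE 0.38, edgeR adjusted p = 0.185) over 4 libraries. CL3566.Contig3, closest to expansin-A15, was at 13.6, 7.70 and 7.83 FPKM in sunlight and at 2.75, 5.25 and 1.40 FPKM in shade, with a log2 fold change of -1.04 (SE 0.40, edgeR adjusted p = 0.294). For both the groups did not overlap on either scale. The most abundant contig of the same cluster, CL3566.Contig6, went from 29.0 to 86.6 FPKM within the sunlight group and overlapped with the shaded group at 49.0 to 84.7 FPKM. The 3 unigenes annotated as beta-expansins that were tested over 4 libraries had negative fold changes, with a median of -0.68. The assignment is uncertain for 2 of them, CL3841.Contig2 and CL3841.Contig5, since their closest Swiss-Prot entries are expansin-like A proteins.

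XTHs had no common direction, and some abundant unigenes lay higher in shade. The summed level was 786, 1489 and 1526 FPKM in sunlight and 1930, 1572 and 1431 FPKM in shade, so that Y+S3 overlapped with the sunlight libraries. Of 30 tested over 4 libraries 11 had a positive and 19 a negative fold change, with a median of -0.25 that was -0.07 without Y2, -0.41 without Y3 and -0.39 without Y+S2. Over 6 libraries 14 were positive and 15 negative, the median was -0.14, and it lay between -0.14 and 0.15 when single libraries were left out. The groups did not overlap for 4 XTHs above (13.8% of 29, beside 6.67% of all unigenes) and 2 below (6.90%, beside 7.28%).

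Unigene43, closest to XTH protein 7, had the largest positive fold change among XTHs. It stood at 27.3, 60.5 and 105 FPKM in sunlight and at 543, 246 and 217 FPKM in shade, and its mean was 5.22 times as high in shade. Each shaded library lay above the highest sunlight library, and Y+S1 was the highest of all. Over 4 libraries the log2 fold change was 2.26 (SE 0.48), with an adjusted p of 0.155 with edgeR and 2.28e-05 with DESeq2, and over 6 it was 2.47 (SE 0.54).

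Unigene15973, closest to XTH protein 27, showed the same order of libraries in shade. Its levels were 51.3, 115 and 134 FPKM in sunlight and 387, 219 and 180 FPKM in shade. The groups did not overlap, and the log2 fold change over 4 libraries was 1.26 (SE 0.37), with an adjusted p of 0.209 with edgeR and 0.0327 with DESeq2. Unigene27041, a further XTH closest to protein 7, which was picked after its values had been seen, was at 67.8, 119 and 169 FPKM in sunlight and at 223 to 251 FPKM in shade, with a log2 fold change of 0.62 (SE 0.26, edgeR adjusted p = 0.332) over 4 libraries.

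The most abundant XTH, Unigene58161, did not follow these. It was at 297, 738 and 812 FPKM in sunlight and at 511, 607 and 444 FPKM in shade, and the groups overlapped through Y1. Its log2 fold change was -0.52 (SE 0.27, edgeR adjusted p = 0.419) over 4 libraries. It held 37.8% to 53.2% of the summed XTH level in the sunlight libraries and was second to Unigene43 in Y+S1. The largest negative fold changes over 4 libraries were in CL489.Contig7 and Unigene35189, also picked after their values had been seen. CL489.Contig7 was at 32.4, 58.6 and 10.8 FPKM in sunlight and at 8.24, 6.28 and 20.4 FPKM in shade, so that Y+S3 lay above Y3. Unigene35189 was at 21.4, 28.3 and 7.67 FPKM in sunlight and at 4.18, 3.84 and 10.1 FPKM in shade. The log2 fold change of Unigene35189 was -2.25 over 4 libraries, with an adjusted p of 0.193 with edgeR and 0.00240 with DESeq2, and -1.52 over 6 libraries.

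Endoglucanases were few and of low level. The 12 unigenes comprise 10 of the endo-1,4 type, which cut cellulose-like glucans, and 2 with a beta-1,3-glucanase name, whose substrate is callose and which were not tested for want of counts. Their summed level was 82.7, 115 and 124 FPKM in sunlight and 167, 143 and 101 FPKM in shade, with an overlap through Y+S3. Of 10 tested, 9 had a positive fold change over 4 libraries and 6 over 6 libraries. CL8811.Contig2 had the highest mean level. It is an endoglucanase 25, the type known in Arabidopsis as KORRIGAN and needed for cellulose synthesis. It was at 13.6, 34.0 and 25.8 FPKM in sunlight and at 51.4, 38.8 and 29.0 FPKM in shade, with a log2 fold change of 0.55 (SE 0.31, edgeR adjusted p = 0.457) over 4 libraries. Unigene27113, closest to endoglucanase 9, lay the other way, at 2.42, 5.76 and 7.08 FPKM in sunlight and 2.37, 3.07 and 0.476 FPKM in shade. Its groups separated on the TMM scale only, and the log2 fold change was -1.29 (SE 0.27, edgeR adjusted p = 0.155). Unigene21642, also closest to endoglucanase 9 and picked after its values had been seen, was at 0.785 FPKM, 0 and 0.244 FPKM in sunlight, the middle value from 0 counts, and at 1.01, 3.63 and 4.16 FPKM in shade.

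Pectinesterases held the member with the largest fold change over 6 libraries. Unigene45652, of 1821 nt, is annotated as a precursor of pectinesterase-1 and is closest to pectinesterase/pectinesterase inhibitor 6, a form that carries an inhibitor domain before the enzyme. Its levels were 19.4, 41.0 and 62.7 FPKM in sunlight and 905, 398 and 430 FPKM in shade, from 442, 805 and 1145 counts and from 30891, 9894 and 8767 counts. Every shaded library was several times above the highest sunlight library, and the mean was 14.1 times as high in shade. Its log2 fold change was 3.66 (SE 0.50) over 4 libraries and 3.92 (SE 0.57) over 6. The adjusted p of edgeR was 0.0816 and 0.475, the smallest of the members in both sets. With DESeq2 it was 4.01e-15 and 6.34e-10, and with limma on log2(FPKM + 0.5) it was 0.0420 and 0.0343. With 1 of the 4 libraries left out, and so 1 library alone in a group, the log2 fold change was 3.45 without Y2, 3.85 without Y3, 2.79 without Y+S1 and 4.18 without Y+S2. The edgeR adjusted p was then 0.628, 0.292, 3.37e-18 and 4.24e-34, so that the call depended on which group was left with a single library.

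The summed pectinesterase level rested in large part on this unigene in shade. The sum was 511, 921 and 896 FPKM in sunlight and 1845, 1388 and 1121 FPKM in shade, without overlap. Unigene45652 made up 49.1%, 28.6% and 38.4% of it in the 3 shaded libraries, whereas Unigene2260, a pectinesterase 3, led the sunlight libraries with 16.5% to 18.0%. The median log2 fold change of the group was 0.06 over 4 libraries, with 19 positive and 16 negative of 35 tested, and it was -0.13 without Y3 and -0.07 without Y+S1. The groups did not overlap for 6 pectinesterases above (18.2% of 33, beside 6.67% of all unigenes) and 3 below (9.09%, beside 7.28%). Of the 6 above, 3 are contigs of a single cluster, CL11609, and do not count as separate genes. Without overlap on both scales were 3 above and 1 below.

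Other pectinesterases differed less. CL2209.Contig2, named here after its values had been seen, was at 36.1, 68.7 and 63.2 FPKM in sunlight and at 106, 153 and 85.6 FPKM in shade, with a log2 fold change of 0.91 (SE 0.26, edgeR adjusted p = 0.207) over 4 libraries. Unigene2260 was at 87.7, 166 and 148 FPKM in sunlight and 138, 183 and 144 FPKM in shade. These groups overlapped, and the log2 fold change over 4 libraries was -0.03. Unigene40568, a pectinesterase 31, hardly varied, at 52.2 to 64.0 FPKM in sunlight and 55.9 to 64.7 FPKM in shade. On the lower side stood Unigene40366, a pectinesterase 68, at 17.3, 28.9 and 21.9 FPKM in sunlight and 2.85, 16.1 and 0.939 FPKM in shade. Its groups did not overlap, but Y+S2 lay close to Y1, and the log2 fold change was -1.56 (SE 0.63, edgeR adjusted p = 0.312) over 4 libraries. It was -0.83 without Y+S1 and -3.13 without Y+S2, in fits with 1 shaded library alone. Unigene39361, closest to pectinesterase/pectinesterase inhibitor 3, was at 2.60, 6.02 and 4.22 FPKM in sunlight and 2.78, 2.07 and 0.756 FPKM in shade, with a log2 fold change of -1.11 (SE 0.42, edgeR adjusted p = 0.286), and its groups separated on the TMM scale only.

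**Figure D3:**
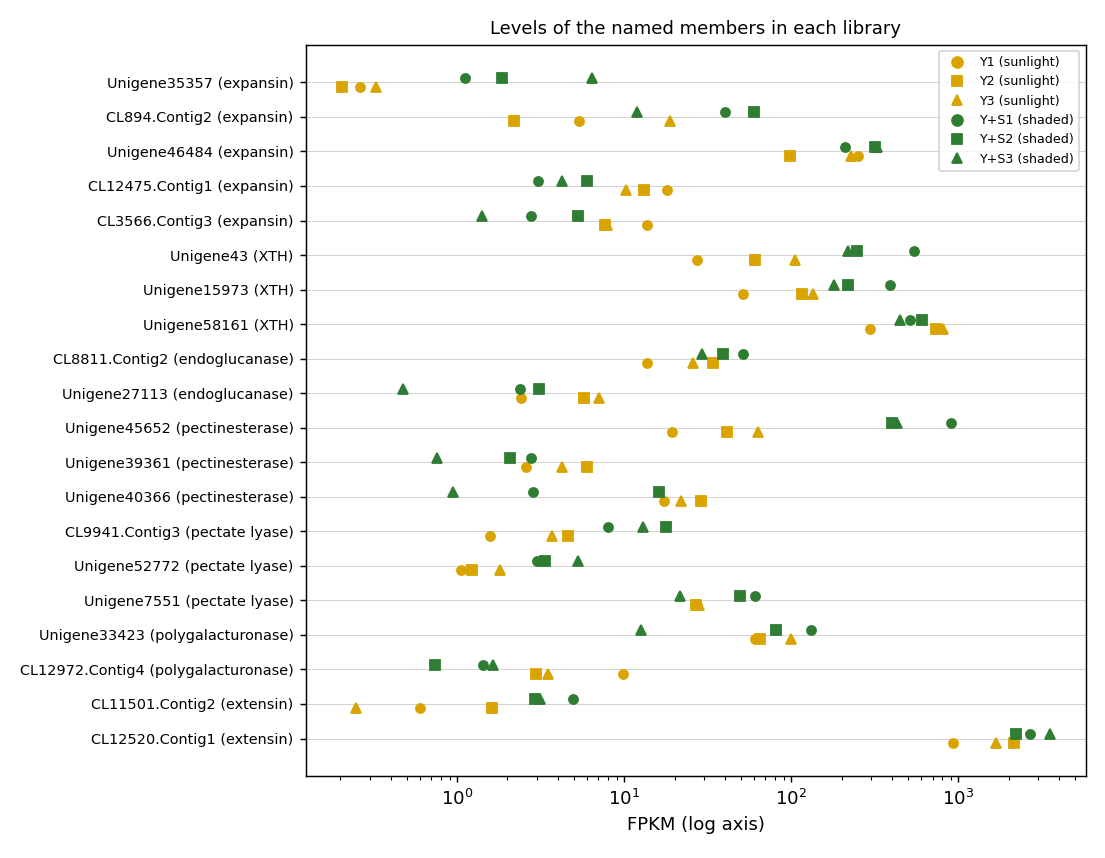
Deposited FPKM (log axis) of the 20 members named by rule in 3 sunlight (yellow) and 3 shaded (green) libraries, ordered by enzyme group. Unigene45652 shows the widest gap, with 19.4 to 62.7 FPKM in sunlight and 398 to 905 FPKM in shade, whereas Unigene33423 spans 12.5 to 132 FPKM within the shaded group.

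Pectate lyases were the group with the highest median over 4 libraries, 1.02, with 14 positive and 3 negative of 17 tested. Over 6 libraries the median was 0.63, and it was 1.03 to 1.13 without Y1, Y2, Y3 or Y+S1. Their summed level was 90.0, 89.0 and 146 FPKM in sunlight and 291, 313 and 146 FPKM in shade, Y3 and Y+S3 being level. Of the 17 tested, 5 had groups that did not overlap above (29.4%, beside 6.67% of all unigenes) and 1 below (5.88%, beside 7.28%). An unadjusted p under 0.05 over 4 libraries was found for 8 (47.1%), all higher in shade, beside 7.23% of all unigenes higher and 7.69% lower. Contigs were counted singly in these shares. Of the 17 tested over 6 libraries, 4 belong to the cluster CL7570 and do not count as separate genes.

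Unigene7551, closest to pectate lyase 22, had the highest mean level of the group. It varied little in sunlight, at 27.3, 26.9 and 28.1 FPKM, and stood at 60.2, 49.4 and 21.5 FPKM in shade. Y+S3 was the lowest of the 6 libraries while Y+S1 and Y+S2 were the highest. The fit gave 0.96 on the log2 scale (SE 0.26, edgeR adjusted p = 0.199) over 4 libraries and 0.56 (SE 0.36) over 6.

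CL9941.Contig3, a pectate lyase 15, separated the groups in full. Its levels were 1.56, 4.62 and 3.70 FPKM in sunlight and 7.96, 17.8 and 12.99 FPKM in shade. Its log2 fold change was 1.53 (SE 0.39, edgeR adjusted p = 0.185) over 4 libraries and 2.07 (SE 0.48) over 6, where the adjusted p was 0.512 with edgeR and 0.0296 with DESeq2. Unigene52772, annotated as pectate lyase 12, was at 1.05, 1.22 and 1.81 FPKM in sunlight and at 2.98, 3.37 and 5.29 FPKM in shade. Its groups did not overlap, and its log2 fold change was 1.02 (SE 0.46, edgeR adjusted p = 0.349) over 4 libraries.

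The cluster CL7570, whose contigs are closest to pectate lyase 5 or 18 and which was examined after its values had been seen, shared with the expansin cluster CL894 that Y3 was the highest sunlight library and Y+S3 the lowest shaded library of the sum. The summed level of its 4 contigs was 16.8, 16.7 and 59.7 FPKM in sunlight and 157, 143 and 29.6 FPKM in shade. Y3 was the highest sunlight library for 4 of 4 contigs, and Y+S3 lay below Y3 for 3 of 4. CL7570.Contig3, the most abundant contig, was at 8.09, 6.38 and 28.1 FPKM in sunlight and 76.4, 64.5 and 14.3 FPKM in shade. Over 4 libraries its log2 fold change was 2.04, and the adjusted p was 0.201 with edgeR and 0.00250 with DESeq2.

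**Figure D4:**
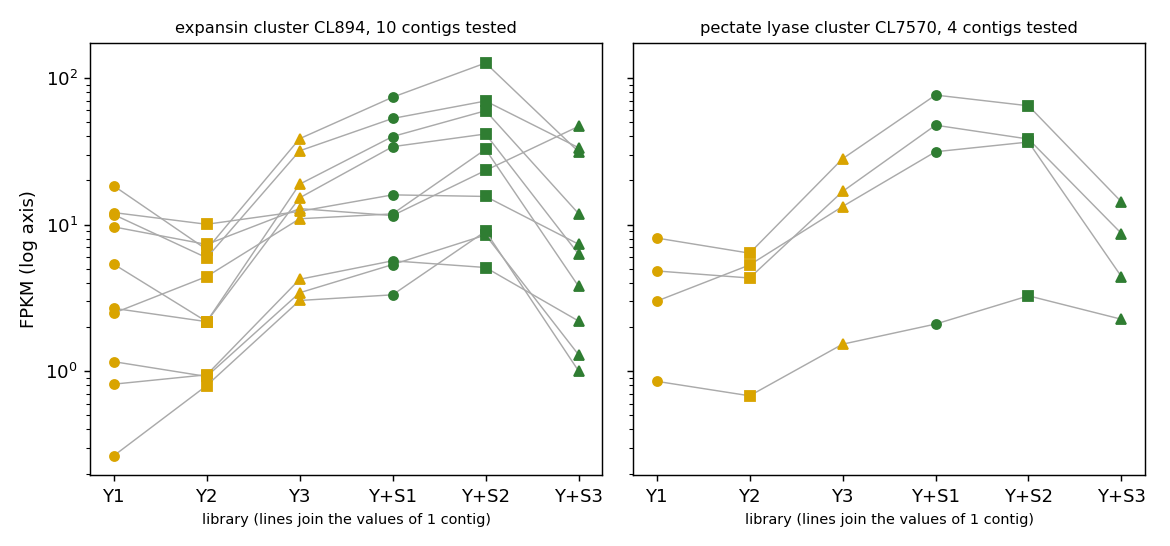
Deposited FPKM (log axis) in each library of the tested contigs of the expansin cluster CL894 (10 contigs) and the pectate lyase cluster CL7570 (4 contigs); each line joins the values of 1 contig and the order of libraries within a group carries no meaning. Y3 is the highest sunlight library for all 14 lines, and Y+S3 is the lowest shaded library for 9 of 10 and 3 of 4.

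Polygalacturonases showed no common direction. Their summed level was 200.2, 230.1 and 285 FPKM in sunlight and 285, 283 and 138 FPKM in shade, and the means were 239 ± 43.1 and 235 ± 84.1 FPKM (SD, n = 3 each). Over 4 libraries 15 of 26 tested had a positive fold change, with a median of 0.18 that was -0.04 without Y+S1 and 0.27 without Y3. The groups did not overlap for 3 of 23 above (13.04%, beside 6.67% of all unigenes) and 2 below (8.70%, beside 7.28%). Without overlap on both scales were 0 above and 1 below. Inhibitor proteins made up 1 of those above and 1 of those below in TMM-scaled CPM. The 46 unigenes are not all enzymes: 5 are named as the non-catalytic subunit and 6 as polygalacturonase inhibitors, plant proteins that bind the enzymes of fungi and other attackers.

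Unigene33423 had the highest mean level. It was at 60.9, 65.0 and 100.01 FPKM in sunlight and at 132, 81.0 and 12.5 FPKM in shade. The shaded libraries lay on both sides of the sunlight libraries. Its log2 fold change was 0.36 (SE 0.35) over 4 libraries and -0.16 (SE 0.62) over 6, and it changed sign when Y+S1 was left out of the 4 libraries (-0.17) or Y+S3 out of the 6 (0.29). CL12972.Contig4 was at 9.79, 2.95 and 3.51 FPKM in sunlight and 1.43, 0.736 and 1.65 FPKM in shade. These groups did not overlap, and the log2 fold change was -1.55 (SE 0.53, edgeR adjusted p = 0.253) over 4 libraries. Unigene33543, picked after its values had been seen, was at 4.99, 6.02 and 4.27 FPKM in sunlight and 0.830, 1.33 and 2.55 FPKM in shade. Its log2 fold change was -2.33 over 4 libraries, with an adjusted p of 0.138 with edgeR and 0.0251 with DESeq2. The most abundant inhibitor unigene, CL4807.Contig2, was at 43.0, 61.7 and 68.7 FPKM in sunlight and 33.7, 70.8 and 20.2 FPKM in shade, with a log2 fold change of -0.40 (SE 0.32) over 4 libraries. Another contig of its cluster, CL4807.Contig4, had its highest level in Y+S3, at 30.6 FPKM against 5.39 to 12.4 FPKM in the other 5 libraries.

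Extensins gave the largest part of the summed FPKM. The sum was 2136, 4139 and 3397 FPKM in sunlight and 5356, 4438 and 6624 FPKM in shade, without overlap, with means of 3224 ± 1013 and 5473 ± 1098 FPKM (SD, n = 3 each). Of 25 tested over 4 libraries 20 had a positive fold change, with a median of 0.37. Over 6 libraries 4 of 25 had groups that did not overlap above (16.0%, beside 6.67% of all unigenes) and 2 below (8.0%, beside 7.28%). The median over 4 libraries was 0.20 without Y3 and 0.07 without Y+S1. That over 6 libraries was 0.42, and it was -0.03 without Y+S1 and 0.72 without Y2. Of the 49 unigenes, 27 are leucine-rich repeat extensins, chimeric proteins in which an extensin tail is joined to a repeat domain, and 2 are receptor kinases with an extensin-like part. Extensins are repetitive, 27 of the 49 contigs were shorter than 500 nt, and their assembly and unique alignment are less certain than those of the enzymes.

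CL12520.Contig1, of 296 nt and closest to extensin, had the highest FPKM of all members. By mean share of the counted fragments it had rank 3 (0.0650%), after Unigene40624 (0.103%) and the XTH Unigene58161 (0.0714%). CL12520.Contig1 stood at 928, 2143 and 1669 FPKM in sunlight and at 2687, 2207 and 3535 FPKM in shade. The groups did not overlap in FPKM, although Y+S2 exceeded Y2 by little, and they overlapped on the TMM scale. The log2 fold change was 0.31 (SE 0.32, edgeR adjusted p = 0.705) over 4 libraries and 1.01 (SE 0.53) over 6. Unigene40624, an extensin of 614 nt, came next in FPKM and had the same log2 fold change, 0.31, over 4 libraries. CL11501.Contig2, a leucine-rich repeat extensin of 402 nt, was at 0.598, 1.61 and 0.248 FPKM in sunlight and at 4.91, 2.91 and 3.11 FPKM in shade. Its groups did not overlap, but its sunlight values rested on 3, 7 and 1 counts. It passed the filter on low counts only through the shaded libraries. The log2 fold change was 1.99 (SE 0.78, edgeR adjusted p = 0.299) over 4 libraries, 3.93 without Y2, 1.13 without Y3, 1.41 without Y+S1 and 2.36 without Y+S2.

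Among the 6 extensins whose groups did not overlap in TMM-scaled CPM, all were of the leucine-rich repeat kind. Of the 14 leucine-rich repeat extensins tested over 6 libraries 4 lay above (28.6%, beside 6.67% of all unigenes) and 2 below (14.3%, beside 7.28%). Of the 10 plain extensins tested 0 lay above or below, and 10 unigenes are too few to tell 0 from these shares of all unigenes. This difference was not tested. Unigene10426 and Unigene10633, both closest to leucine-rich repeat extensin-like protein 6, were at 9.79 to 20.3 and 8.27 to 16.0 FPKM in sunlight and at 23.8 to 32.9 and 18.5 to 22.6 FPKM in shade. Unigene28254, closest to the same protein, lay below, at 19.4 to 23.1 FPKM in sunlight and 10.3 to 21.5 FPKM in shade, its groups separating on the TMM scale only. These 3 were picked after their values had been seen.

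**Figure D5:**
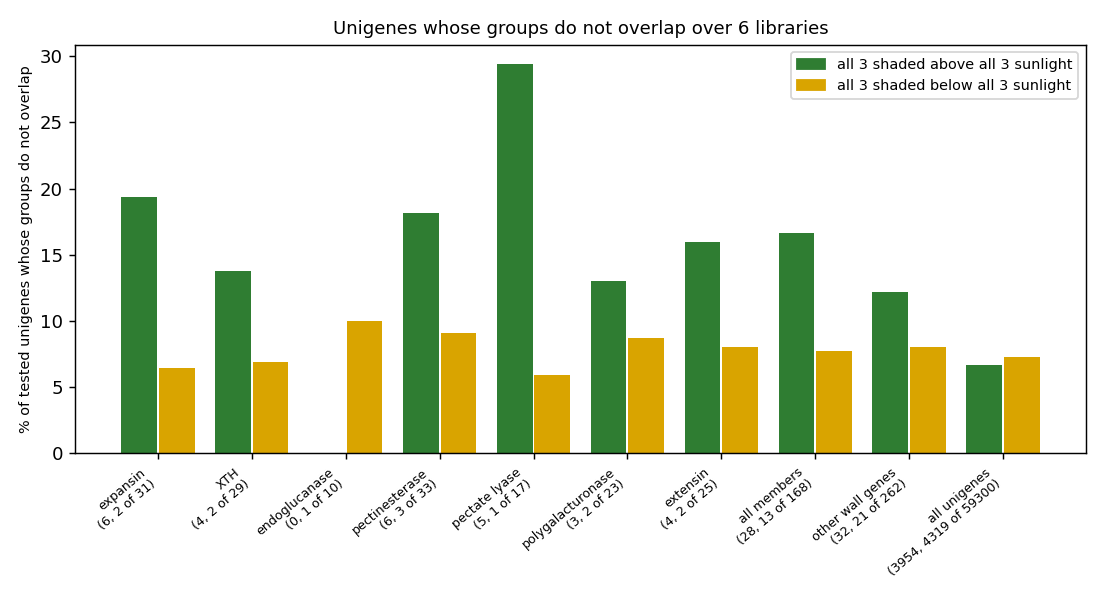
Percentage of the unigenes tested whose 3 shaded libraries all lie above (green) or below (yellow) the 3 sunlight libraries in TMM-scaled CPM, for each enzyme group, all members, the other wall genes and all unigenes; the counts above and below stand in parentheses. For all members the bars are 16.7% and 7.74%, beside 6.67% and 7.28% for all unigenes.

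Which library carried the extremes differed between the enzymes. Y+S3 was the highest of the 6 libraries for 54 of the 168 members tested (32.1%, in TMM-scaled CPM), beside 23.4% of all unigenes tested, and the lowest for 39 (23.2%), beside 27.7%. Y2 was the lowest library for 18 of 31 expansins (58.1%) and 7 of 17 pectate lyases (41.2%), beside 8.76% of all unigenes. Contigs were counted singly here: 10 of the 31 expansins belong to CL894 and 4 of the 17 pectate lyases to CL7570. Y1 was the lowest for 14 of 33 pectinesterases (42.4%) and 11 of 25 extensins (44.0%), beside 22.4% of all unigenes. The dividing-cell list (10 unigenes of B-type cyclins, their kinases and the replication clamp) summed to 692, 430 and 413 FPKM in sunlight and 221, 382 and 425 FPKM in shade. It was lowest in Y+S1, where the members' share of the counts was highest, and its part in the results was not tested. The part of the non-plant RNA in Y+S3 was not tested either.

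The other wall genes, on 13 lists with 386 unigenes chosen by annotation words, were described in the same way. Over 4 libraries 0 of 288 tested had an edgeR adjusted p of 0.05 or less. At an unadjusted p under 0.05 there were 72 (25.0%, beside 14.9% of all unigenes), 52 higher and 20 lower in shade. Over 6 libraries 32 of 262 lay above without overlap (12.2%, beside 6.67% of all unigenes) and 21 below (8.02%, beside 7.28%), shares against which the counts of each list are to be read. Genes that make the wall polymers did not all lie on one side. Cellulose synthases, the makers of the microfibrils, had 4 above (7.41%) and 8 below (14.8%) of 54 tested, and galacturonosyltransferases, which build pectin, had 6 above (22.2%) and 1 below (3.70%) of 27. COBRA proteins, which guide the orientation of cellulose in Arabidopsis, had 5 above and 0 below of 14. Beta-galactosidases had 40 of 45 positive fold changes over 4 libraries, with a median of 0.47, but only 1 of 41 lay above without overlap over 6. Arabinogalactan proteins had 14 positive and 24 negative fold changes over 4 libraries, with a median of -0.52.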

How the data were processed

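Leaf RNA of 3 sunlight and 3 shaded samples of tea was measured by RNA-seq. Per the labels and the methods, the authors made stranded mRNA libraries, filtered the reads and built 1 de novo assembly from every library (Trinity, then TGICL and Phrap). They deposited, for each unigene and library, the raw count of uniquely aligned fragments and the FPKM. The aligner and the strand setting are not given in the sources used here, so reads of overlapping antisense transcripts may be mixed. Columns were assigned with the deposited key; the sample descriptions carry other codes, and 2 of these conflict with the key: Y+S1 is described with the code that the key gives to Y+S3, and Y3 with the code that it gives to Y1. Which library is Y1, Y3, Y+S1 or Y+S3, and so the choice of the 4 libraries, rests on the key. Under the key the counted fragments fall from Y1 to Y3 and from Y+S1 to Y+S3, and the study's totals of clean reads fall in the same order. 1 line of the table was empty and not used.

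Members and groups came from annotation words. The members, the lists and the rule for named unigenes were chosen with earlier results of these data known. The rule took every member called by edgeR (there was none), the most abundant member of each enzyme group, and up to 2 members per group and direction, by size of the 6-library fold change, whose groups did not overlap, with a mean of at least 1 FPKM and a change of at least 1 (log2, either sign) in both fits. It gave 20 unigenes.

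The test on counts was the quasi-likelihood F test in edgeR 4.0.16 (R 4.3.3), after filterByExpr and TMM scaling, with Benjamini-Hochberg adjustment over all unigenes tested and a threshold of 0.05. The standard error is the fold change divided by the square root of F. The study's own rule, an adjusted p of 0.001 with a change of 1 on the log2 scale, was tried too. Alternatives were DESeq2 1.42.0, RLE factors, no filter, a mean of at least 1 FPKM, limma 3.58.1 on log2(FPKM + 0.5) and with pseudocounts of 0.1 and 1, 1 contig per cluster, a replicate block and leaving out each library. The programs were tested on simulated data. A count of 0 was taken to allow 3 counts. Python 3.11.15 with pandas 2.3.3, numpy 2.4.6 and matplotlib 3.10.9 served for the summaries.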

Additional observations from a re-analysis of the deposited data

How the results depend on the processing

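Over 4 libraries the members called higher and lower in shade were 0 and 0 with edgeR, 6 and 3 without the filter, 8 and 2 with DESeq2, 1 and 0 with limma at each pseudocount, 3 and 0 with DESeq2 under the study's rule, and 0 to 22 and 0 to 11 when single libraries were left out. Over 6 libraries they were 0 and 0 with edgeR, 4 and 0 with DESeq2, 1 and 0 with limma and 1 and 0 with DESeq2 under the study's rule. Members without overlap numbered 63 above and 31 below over 4 libraries (background 24.9% and 23.1%, chosen after seeing the data), and 36 to 51 (background 9.13% to 19.2%) and 14 to 26 (background 10.8% to 20.1%) with single libraries left out of 6.

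Of the median log2 fold changes over 6 libraries, that of all members was 0.27 without the filter, 0.27 with DESeq2, 0.21 with limma and 0.29 with each cluster once. That of expansins was 0.50, 0.56, 0.52 and 0.52 in the same order, that of endoglucanases 0.11 with each cluster once, and that of polygalacturonases -0.22 with limma. Over 4 libraries that of pectate lyases was 0.96, 0.93, 0.97 and 0.96, and that of polygalacturonases 0.28, 0.25, 0.076 and 0.33. With single libraries left out of 4 and of 6, the medians ran from 0.094 to 0.30 and 0.20 to 0.41 for all members, -0.41 to -0.067 and -0.14 to 0.15 for XTH, 0.12 to 0.43 and 0.027 to 0.35 for endoglucanases, 0.25 to 0.85 and 0.26 to 1.09 for expansins, 0.072 to 0.52 and -0.031 to 0.72 for extensins, 0.81 to 1.16 and 0.61 to 1.13 for pectate lyases, -0.13 to 0.18 and 0.13 to 0.30 for pectinesterases, and -0.037 to 0.27 and 0.17 to 0.26 for polygalacturonases. The fold change of Unigene33423 changed sign, with a range of -0.17 (without shaded replicate 1) to 0.74 over 4 libraries and of -0.87 to 0.29 (without shaded replicate 3) over 6. The causes of these differences were not tested.

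The deviations of same-numbered libraries from their group means correlated at -0.40, 0.01 and -0.49. Those of Y1 and Y+S3, which stood apart from the rest and carry different numbers, correlated at 0.44. These 2 libraries weigh on the other values, so the check cannot tell whether replicate numbers pair the samples. With the replicate block over 6 libraries 0 members were called. Over 4 libraries the groups share only number 2, and no block was fitted. The precision is limited by 3 libraries a group, and 2 in the smaller set.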
